A study of Mus musculus with 12 samples.

Results

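Egr1, Egr2, Egr3, Csrnp1, Hbegf, Nr4a1, Nr4a2 and Nr4a3 are 8 early response genes of the 21851 genes analysed in peritoneal lavage cells of the mouse. They were chosen by their symbols and by measured values of these libraries, since several of them differed between the genotypes in their response to LPS. Their differences between the genotypes, and their LPS responses within a genotype, are therefore described here and not tested. The tested comparison is LPS against PBS averaged over both genotypes. In this balanced design the size of that difference does not depend on either genotype difference. Its error, however, comes from the same spread between libraries as that of the genotype differences, so its p-values from the fit are not free of the choice. The libraries formed 4 groups of 3, namely lactoferrin knockout (KO) mice given LPS, wild-type (WT) mice given LPS, KO mice given PBS and WT mice given PBS. All mice were of the C57BL/6J strain and were injected intraperitoneally, with LPS, the bacterial lipopolysaccharide sensed through Tlr4, or with saline. Not stated in the sources used here are the age, sex and number of mice, the kind of knockout allele, the LPS dose and how long after the injection the cells were taken. The design text sets out to show what the absence of lactoferrin, an iron-binding protein that neutrophils store and release, does to gene expression in acute LPS inflammation.

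Early response genes are transcribed within minutes of a stimulus, without the need for new protein, and many of them fall back again soon after. Egr1, Egr2 and Egr3 encode zinc finger transcription factors of the same family, which are induced through the ERK kinase cascade, serum response factor and its ternary complex partners, and which are held in check by the corepressors Nab1 and Nab2. Nr4a1, Nr4a2 and Nr4a3 encode orphan nuclear receptors that restrain inflammatory gene expression in macrophages and are induced by cAMP, calcium and inflammatory signals. Csrnp1 encodes a nuclear protein whose human form was described as induced by Axin, and Hbegf encodes a membrane-bound growth factor that is cut free by ADAM proteases and then binds the EGF receptor.

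Each library gave a level in FPKM, fragments scaled by transcript length and library size, for 21878 rows, with totals between 343874 and 388129 FPKM. Read totals are not given, and the step size of low values put the depth of 11 libraries at 0.927 to 0.998 of that of WT PBS replicate 1. Ltf, which encodes lactoferrin, was at 0.0899 ± 0.024 FPKM in KO LPS libraries, against 0.593 ± 0.639 FPKM in WT LPS libraries, and at 0.218 ± 0.0376 FPKM in KO PBS libraries, against 1.43 ± 0.402 FPKM in WT PBS libraries (SD, n = 3 each). The titles of the KO libraries speak of wild type, whereas their codes, descriptions and characteristics give the knockout, and the Ltf levels go with the knockout, most clearly under PBS. The WT LPS mean rests on replicate 2 at 1.33 FPKM. WT LPS replicates 1 and 3, at 0.176 and 0.275 FPKM, were above the KO LPS libraries (at most 0.117 FPKM) but near the KO PBS libraries. WT PBS replicate 3 was the least like its group, with Spearman correlations down to 0.934, against at least 0.973 for other pairs within groups. Haemoglobin and other erythroid markers summed to 1890 FPKM in KO LPS replicate 1 and to 2230 FPKM in WT LPS replicate 2, and to no more than 330 FPKM elsewhere. The defining markers of large peritoneal macrophages were present, with Gata6 between 7.48 and 27.5 FPKM in the 12 libraries, and so were those of neutrophils, B cells and mast cells. In such a mixture, fewer cells of a type and less RNA per cell cannot be told apart. The labels do not say whether numbered libraries come from different mice, and the p-values therefore reflect only library-to-library spread, which may be technical.

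Averaged over both genotypes, 5 of the 7 genes that reached the minimum mean level of 1 FPKM were called under LPS, a share near the background of 70.3% of all genes tested. Egr1, Egr2, Egr3 and Nr4a1 fell, and Hbegf rose, in limma's moderated test on log2(FPKM + 1) with Benjamini-Hochberg adjustment over all genes tested, but the exact permutation test did not pass the threshold for Egr1 (p = 0.075) or Hbegf (p = 0.095). The calls were 1 higher, against a background of 27.7% of the 9841 genes tested, and 4 lower, against a background of 42.6%. The median difference of the 7 genes was -0.56, against -0.12 for all genes tested, so the typical gene was itself slightly lower under LPS. Scaling by the median of ratios moved that general median to -0.005 and the calls over all genes to 3462 higher and 3487 lower, in place of 2724 higher and 4197 lower. Egr2 reached 1 FPKM only in the 6 PBS libraries, and so passed the minimum through the groups in which it was high, so that its call is no support for the count. Nr4a2 did not reach the minimum, so it was not fitted.

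**Figure D1:**
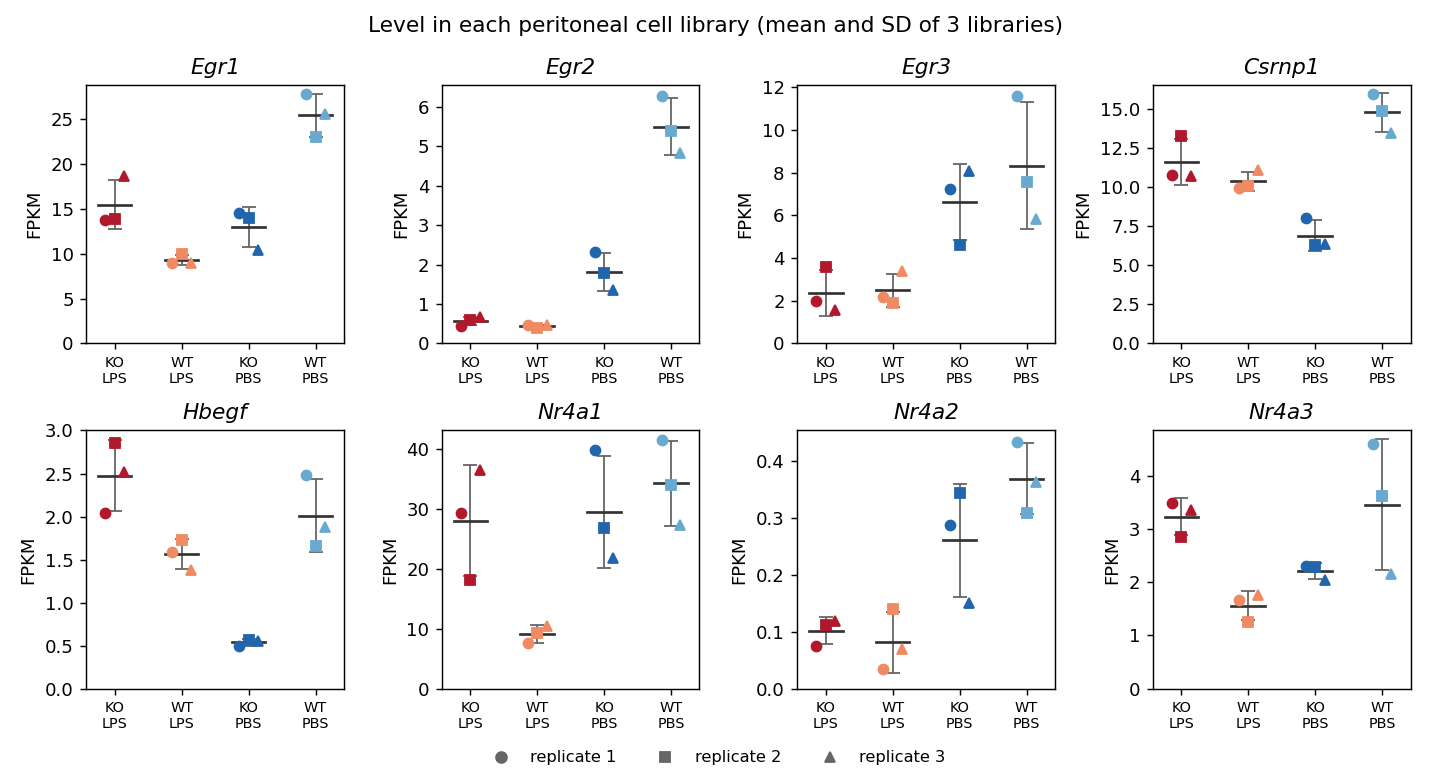
Level in FPKM (vertical axes, each from 0) of the 8 genes in each of the 12 libraries, by group, with symbols for the replicate numbers and with the mean and SD of 3 libraries. Egr2, Egr3 and Nr4a2 are low in both LPS groups, Csrnp1 and Hbegf are lowest in KO PBS libraries, and Nr4a1 is lowest in WT LPS libraries.

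Egr1 had the highest FPKM of the Egr genes, and its level was highest in WT mice given PBS. It had 13.8, 13.9 and 18.6 FPKM in KO LPS libraries, against 8.98, 9.98 and 8.95 FPKM in WT LPS libraries. Under PBS it had 14.5, 14 and 10.4 FPKM in KO libraries, against 27.8, 23 and 25.5 FPKM in WT libraries. The 3 WT PBS libraries stood above all others and the 3 WT LPS libraries below all others, while KO LPS and KO PBS libraries overlapped in between. In the average over genotypes Egr1 fell by 0.56 ± 0.10 on the log2(FPKM + 1) scale (SE, limma adjusted p = 0.000418). The LPS difference was 0.24 ± 0.14 in KO cells and -1.36 ± 0.14 in WT cells (SE), so that the average joins a small positive and a large negative value. The exact permutation of LPS and PBS labels within genotype, two-sided over 400 relabellings, gave p = 0.075 for Egr1, above the threshold of 0.05. Under PBS the KO less WT difference was -0.93 ± 0.14, and under LPS it was 0.66 ± 0.14 (SE). The gene lies on chromosome 18 of GRCm38 from 34859823 to 34864984, on the plus strand, and no other annotated gene overlaps it.

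Egr2, whose product is best known from myelination and from the restraint of activated lymphocytes, had the most negative averaged LPS difference of the fitted genes. It had 0.45, 0.596 and 0.665 FPKM in KO LPS libraries and 0.462, 0.403 and 0.461 FPKM in WT LPS libraries. Under PBS it had 2.31, 1.78 and 1.35 FPKM in KO libraries, against 6.26, 5.39 and 4.82 FPKM in WT libraries. Every LPS library lay below every PBS library, and under PBS every KO library lay below every WT library, while the genotypes overlapped under LPS. Averaged over genotypes the Egr2 difference was -1.5 ± 0.10 (SE). Since Egr2 entered the fit through its PBS level, the limma p is not given, and the exact permutation, which was run on all 8 genes without a minimum, gave p = 0.005, the smallest that 400 relabellings can give. The mean under LPS was 3.18-fold lower in KO cells and 12.4-fold lower in WT cells than the mean under PBS. The KO less WT difference was -1.21 ± 0.13 under PBS and 0.12 ± 0.13 under LPS (SE).

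Egr3, which acts beside Egr2 in lymphocytes, fell under LPS, with negative differences in both genotypes. It had 2, 3.59 and 1.55 FPKM in KO LPS libraries and 2.18, 1.91 and 3.38 FPKM in WT LPS libraries, against 7.22, 4.63 and 8.06 FPKM in KO PBS libraries and 11.6, 7.57 and 5.81 FPKM in WT PBS libraries. All LPS libraries were below all PBS libraries, and the genotypes overlapped under either treatment. Averaged over genotypes Egr3 fell by 1.29 ± 0.20 (SE, limma adjusted p = 0.000115, exact permutation p = 0.005). The LPS difference was -1.19 ± 0.28 in KO cells and -1.39 ± 0.28 in WT cells, and the difference between these responses was 0.2 ± 0.39 (SE). Egr3 lies on chromosome 14 from 70077203 to 70082614, on the plus strand. Within the family, Egr1 made up 83.7% ± 6.39 of the summed Egr1 to Egr3 level in KO LPS libraries and 76.2% ± 5.71 in WT LPS libraries, against 60.5% ± 8.03 in KO PBS libraries and 65.2% ± 4.96 in WT PBS libraries (SD, n = 3 each). Egr2 made up 3.08% ± 0.285 and 3.62% ± 0.349 of that sum in KO and WT LPS libraries, against 8.39% ± 1.42 and 14% ± 0.859 in KO and WT PBS libraries (SD, n = 3 each). Lymphocyte markers were also lower under LPS, where the 6 B cell markers summed to 155 to 267 FPKM in KO and 258 to 372 FPKM in WT libraries, against 669 to 921 FPKM in KO PBS and 529 to 1110 FPKM in WT PBS libraries. The 6 T cell markers summed to 6.83 to 14.6 FPKM in KO LPS and 11.8 to 13.8 FPKM in WT LPS libraries, against 15.2 to 21.3 FPKM in KO PBS and 31.4 to 43.1 FPKM in WT PBS libraries. Monocyte markers were lower as well, as the 4 of them summed to 61.4 to 177 FPKM in KO LPS and 44.6 to 52.8 FPKM in WT LPS libraries, against 234 to 334 FPKM in KO PBS and 218 to 596 FPKM in WT PBS libraries. The 7 markers of large peritoneal macrophages summed to 661 to 707 FPKM in KO LPS and 612 to 831 FPKM in WT LPS libraries, against 978 to 1300 FPKM in KO PBS and 729 to 1560 FPKM in WT PBS libraries. Selp, 1 of these 7, went the other way, with 280 to 400 FPKM under LPS against 72.1 to 195 FPKM under PBS. Called lower under LPS on average were 5 of 6 B cell, 6 of 6 T cell, 4 of 4 monocyte and 5 of 7 macrophage markers, against a background of 42.6%. The T cell markers Cd5 and Cd3d and the macrophage marker Garnl3 had at most 0.869, 1.1 and 0.898 FPKM under LPS. They passed the minimum mainly through PBS libraries, so calls for them are no support for these counts. Called higher were 1 of 7 macrophage and 1 of 5 mast cell markers, against a background of 27.7%, with 0 mast cell markers lower. Of 2 tested dendritic cell markers 1 was called higher and 1 lower. None of these markers was at 0 in all libraries, and their part in the fall of Egr2 and Egr3 was not tested.

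The corepressors that EGR proteins bind differed from each other. Nab2, itself an EGR target, was at 7.01 ± 1.34 FPKM in KO LPS and 4.03 ± 0.37 FPKM in WT LPS libraries, against 17.4 ± 1.97 FPKM in KO PBS and 24.1 ± 5.84 FPKM in WT PBS libraries (SD, n = 3 each). It fell by 1.75 ± 0.12 on average under LPS (SE, limma adjusted p = 3.84e-07), whereas Nab1, at mean levels between 20.5 and 21.9 FPKM in the 4 groups, was not called. The Nab2 response of KO cells less that of WT cells, 1.08 ± 0.25 (SE), did not pass the test (limma adjusted p = 0.194).

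Nr4a1, the best studied of the NR4A receptors in myeloid cells, had the highest level per transcript length of the 8 genes in 3 of the 4 groups. It had 29.4, 18.2 and 36.6 FPKM in KO LPS libraries, against 7.55, 9.25 and 10.5 FPKM in WT LPS libraries. Under PBS it had 39.9, 26.8 and 21.8 FPKM in KO libraries and 41.5, 34 and 27.4 FPKM in WT libraries. The 3 WT LPS libraries lay below the other 9, among which the groups overlapped. Averaged over genotypes Nr4a1 fell by 0.94 ± 0.19 (SE, limma adjusted p = 0.000855, exact permutation p = 0.045). That average holds an LPS difference of -0.08 ± 0.27 in KO cells and one of -1.8 ± 0.27 in WT cells (SE). Under LPS the KO mean was 3.09-fold higher than the WT mean, a difference of 1.48 ± 0.27 (SE), and under PBS the difference was -0.24 ± 0.27 (SE). Nr4a1 lies on chromosome 15 from 101254269 to 101274795, on the plus strand.

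The summed neutrophil markers, most of which is S100a8 and S100a9, moved with Nr4a1, but not every marker did. In KO cells, where the Nr4a1 LPS difference was -0.08 ± 0.27 (SE), Cxcr2 had 1.87 to 16.1 FPKM under LPS and 32.7 to 69.2 FPKM under PBS. Mmp9 had 3.12 to 6.86 FPKM under LPS and 22.1 to 49.3 FPKM under PBS there. The other markers overlapped between KO LPS and KO PBS libraries. The 8 markers, all tested, summed to 721 to 2690 FPKM in KO LPS libraries, against 155 to 283 FPKM in WT LPS libraries, and to 1220 to 3100 FPKM in KO PBS libraries, against 1990 to 3330 FPKM in WT PBS libraries. All 8 were called lower under LPS on average, against a background of 42.6% of all genes tested. Within a genotype, 7 of 8 were called lower in WT cells and 2 of 8 in KO cells, against backgrounds of 37.4% and 33.3%. Tested directly, however, 0 of 8 were called in the comparison of LPS responses between the genotypes, against a background of 0.0406%. Between the genotypes 0 of 8 were called under LPS and 0 of 8 under PBS, against backgrounds of 0% and 0.112%. Ly6g, which marks neutrophils, was listed at 0 in WT LPS replicates 1 and 2 and at 0.348 FPKM in WT LPS replicate 3. Its PBS levels, 1.36 to 6.64 FPKM, helped it past the minimum. The tested genes with the pattern most like that of Nr4a1 were S100a9, S100a8 and Retnlg, all neutrophil genes on the marker list, with Pearson r of 0.984, 0.977 and 0.96 over the 12 libraries, and of 0.89, 0.87 and 0.83 after the group means were taken out. These correlations are descriptions over libraries that share their treatment, genotype and cell mixture. The libraries with the lowest and the highest Nr4a1 level, WT LPS replicate 1 and WT PBS replicate 1, were also those with the lowest and the highest marker sum. The part of neutrophil content in the Nr4a1 differences was not tested.

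**Figure D2:**
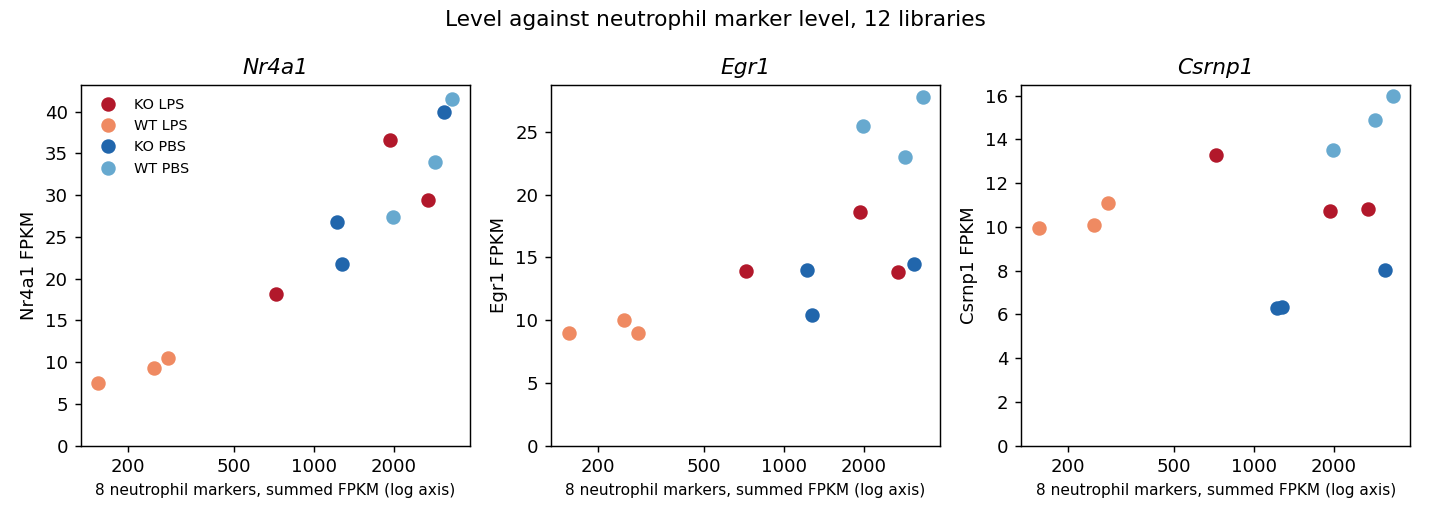
Level in FPKM (vertical axes, from 0) of Nr4a1, Egr1 and Csrnp1 against the summed FPKM of 8 neutrophil markers (horizontal log axes) in the 12 libraries, coloured by group. Nr4a1 climbs with the marker sum across all groups, whereas Egr1 is highest in WT PBS libraries, and Csrnp1 is highest in WT PBS and lowest in KO PBS libraries.

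Nr4a2 was scarcely present, and Nr4a3, also induced in activated macrophages, was low. Nr4a2 had 0.0757, 0.111 and 0.119 FPKM in KO LPS libraries and 0.0347, 0.139 and 0.0695 FPKM in WT LPS libraries, against 0.288, 0.344 and 0.151 FPKM in KO PBS libraries and 0.434, 0.309 and 0.363 FPKM in WT PBS libraries. The 3 WT LPS values stood at 1, 4.02 and 2 times the lowest of them, so they may rest on a few fragments each. Every LPS library lay below every PBS library, and the exact permutation of the averaged difference of -0.27 gave p = 0.005. Nr4a3 had 3.49, 2.84 and 3.36 FPKM in KO LPS libraries, against 1.66, 1.26 and 1.76 FPKM in WT LPS libraries. Under PBS it had 2.3, 2.28 and 2.04 FPKM in KO libraries and 4.6, 3.61 and 2.15 FPKM in WT libraries. KO LPS libraries lay above WT LPS libraries without overlap, while the genotypes overlapped under PBS because WT PBS replicate 3 was low. The averaged LPS difference of Nr4a3 was -0.18 ± 0.13 (SE, limma adjusted p = 0.208, exact permutation p = 0.415), and without WT PBS replicate 3 it was -0.3 and past the threshold (limma adjusted p = 0.00897). The LPS difference was 0.4 ± 0.18 in KO cells and -0.77 ± 0.18 in WT cells (SE). Nr4a1 made up 88.9% ± 2.63, 84.6% ± 2.64, 91.9% ± 1.71 and 90.2% ± 1.27 of the summed NR4A level in KO LPS, WT LPS, KO PBS and WT PBS libraries (SD, n = 3 each). Nr4a2 lies on chromosome 2 from 57106830 to 57124003, on the minus strand, and Nr4a3 on chromosome 4 from 48045153 to 48086447, on the plus strand.

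Among the nuclear receptors and corepressors that NR4A proteins work with, 4 of 4 tested fell under LPS, against a background of 42.6%. Rxra, the retinoid X receptor that pairs with Nr4a1 and Nr4a2, was at 4.25 ± 1.39 FPKM in KO LPS and 3.13 ± 0.269 FPKM in WT LPS libraries, against 18 ± 2.88 FPKM in KO PBS and 18.1 ± 5.76 FPKM in WT PBS libraries (SD, n = 3 each), a fall of 2.02 ± 0.16 (SE, limma adjusted p = 9.49e-07). Rcor1, the CoREST scaffold, fell by 0.63 ± 0.06, while Rxrb fell by 0.29 ± 0.10 and Kdm1a, the histone demethylase of that complex, by 0.2 ± 0.07 (SE).

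Csrnp1 differed between the genotypes under PBS and overlapped between them under LPS. It had 10.8, 13.3 and 10.7 FPKM in KO LPS libraries and 9.95, 10.1 and 11.1 FPKM in WT LPS libraries. Under PBS it had 8.04, 6.3 and 6.35 FPKM in KO libraries, against 16, 14.9 and 13.5 FPKM in WT libraries. The KO PBS libraries were below all others and the WT PBS libraries above all others, with both LPS groups overlapping between them. The averaged LPS difference was 0.1 ± 0.08 (SE, limma adjusted p = 0.28, exact permutation p = 0.62), and after scaling by the median of ratios it was 0.23 and past the threshold (limma adjusted p = 0.0236). Within the genotypes the LPS difference was 0.68 ± 0.12 in KO cells and -0.47 ± 0.12 in WT cells (SE). Csrnp1 lies on chromosome 9 from 119971163 to 119984658, on the minus strand, and the annotation has Cx3cr1 overlapping it on the same strand and 1700019L13Rik on the other. No source used here says whether the counting used strand, so reads of these genes cannot be told apart where they overlap. Cx3cr1, the fractalkine receptor, was at 0.187 ± 0.104 FPKM in KO LPS and 0.172 ± 0.08 FPKM in WT LPS libraries, against 1.87 ± 0.413 FPKM in KO PBS and 2 ± 0.646 FPKM in WT PBS libraries (SD, n = 3 each), and its KO and WT libraries overlapped under either treatment. Ltf lies on the same chromosome, from 111019271 to 111042767, and an effect of the knockout allele on neighbouring sequence was not tested. The other CSRNP genes, Csrnp2 and Csrnp3, were under the minimum, and Axin1, the only one of 4 listed relatives that was tested, was not called.

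The sequence before the transcription start was taken from RefSeq (build GRCm38.p6) for 5 of the 8 genes, as 12 windows of 250 bases before to 50 bases after a start. The windows below are shown because, of each gene's windows, they were the annotated start used for the gene or, for Egr2, a start chosen for the response elements it carries, and capitals mark the motif matches. On the strand of the gene, Egr2 is shown at chr10:67537619-67537918 (plus), Csrnp1 at chr9:119984693-119984992 (minus), Nr4a1 at chr15:101266596-101266895 (plus), Nr4a2 at chr2:57123954-57124253 (minus) and Nr4a3 at chr4:48045055-48045354 (plus). The starts of Egr2, Nr4a1 and Nr4a3 lie inside the annotated spans of the genes.
Egr2: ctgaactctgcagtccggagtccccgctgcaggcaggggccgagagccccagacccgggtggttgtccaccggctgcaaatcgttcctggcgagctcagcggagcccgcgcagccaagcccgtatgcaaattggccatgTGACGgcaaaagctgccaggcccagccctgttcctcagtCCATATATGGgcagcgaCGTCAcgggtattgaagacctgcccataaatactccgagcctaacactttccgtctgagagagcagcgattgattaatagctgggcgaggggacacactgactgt
Csrnp1: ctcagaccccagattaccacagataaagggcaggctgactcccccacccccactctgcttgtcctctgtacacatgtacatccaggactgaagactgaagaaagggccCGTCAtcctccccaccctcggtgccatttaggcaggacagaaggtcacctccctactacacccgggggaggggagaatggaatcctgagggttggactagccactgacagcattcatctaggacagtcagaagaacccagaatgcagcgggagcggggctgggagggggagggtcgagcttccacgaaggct
Nr4a1: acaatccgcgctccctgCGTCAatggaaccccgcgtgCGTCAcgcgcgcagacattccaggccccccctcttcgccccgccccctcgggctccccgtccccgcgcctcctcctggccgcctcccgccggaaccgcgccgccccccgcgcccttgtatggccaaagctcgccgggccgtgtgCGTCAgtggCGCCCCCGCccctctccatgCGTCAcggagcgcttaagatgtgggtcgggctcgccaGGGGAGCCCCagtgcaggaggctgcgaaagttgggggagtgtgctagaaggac
Nr4a2: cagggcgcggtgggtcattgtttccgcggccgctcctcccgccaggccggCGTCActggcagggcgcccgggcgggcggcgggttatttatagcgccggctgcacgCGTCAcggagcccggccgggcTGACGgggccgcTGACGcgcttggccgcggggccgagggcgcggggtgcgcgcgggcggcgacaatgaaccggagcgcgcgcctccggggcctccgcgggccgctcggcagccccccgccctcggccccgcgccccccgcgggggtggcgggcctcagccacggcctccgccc
Nr4a3: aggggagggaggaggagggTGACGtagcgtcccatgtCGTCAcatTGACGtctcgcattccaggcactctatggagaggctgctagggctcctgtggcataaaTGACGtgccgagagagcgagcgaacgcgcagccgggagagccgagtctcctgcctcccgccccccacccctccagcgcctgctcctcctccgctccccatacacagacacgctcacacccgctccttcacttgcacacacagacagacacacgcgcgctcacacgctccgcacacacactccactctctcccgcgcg

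The capitals in Egr2 are a CArG box, the element that serum response factor binds, flanked by 2 copies of TGACG, the core of the cAMP response element, read on either strand. Nr4a1, Nr4a2 and Nr4a3 each hold 4 copies of that core, and the Csrnp1 window shown holds 1. Nr4a1 also holds an EGR site (GCGGGGGCG, here on the minus strand) from 60 to 52 bases before its start and an NF-kB motif across it. Of 32851 mouse promoters of the same length, 20.8% hold the core, 1.63% a CArG box, 3.47% an EGR site (GCGTGGGCG or GCGGGGGCG) and 8.46% an NF-kB motif, on either strand. Full cAMP response elements (TGACGTCA, which would contain the core), the NR4A element AAAGGTCA and the AP-1 element TGANTCA, held by 1.79%, 1.51% and 7.81% of promoters, were searched as well, and these letters are not in the windows shown. Of the windows not shown, another Csrnp1 window holds 2 AP-1 elements, and the Egr2 window at the gene's own start holds an NF-kB motif and neither a CArG box nor the core. Matches are descriptions of the letters and were not tested against the levels.

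**Figure D3:**
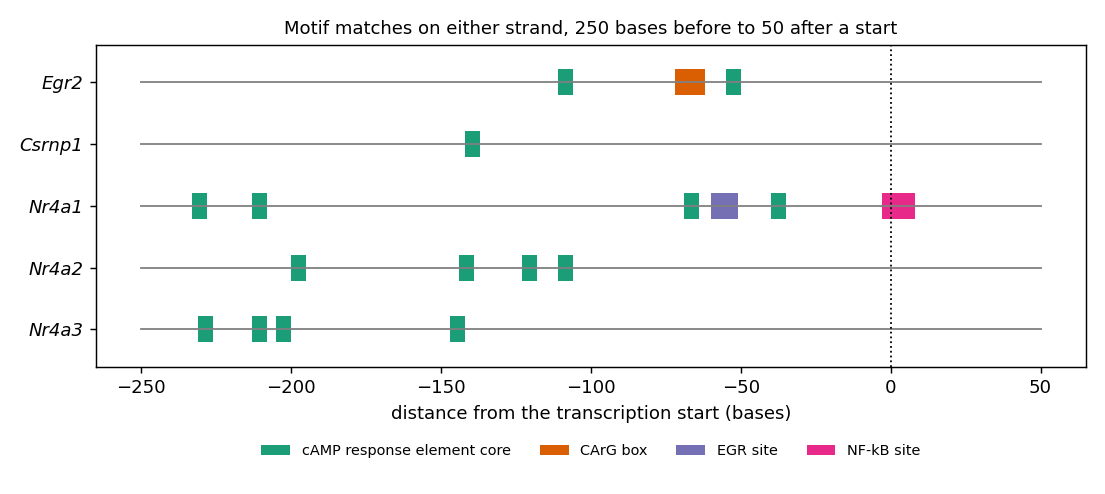
Positions of motif matches, in bases from the transcription start (horizontal axis, start at 0), in the windows of Egr2, Csrnp1, Nr4a1, Nr4a2 and Nr4a3, with a colour for each motif. The NR4A windows each hold 4 cAMP response element cores, all before the start, and the Egr2 window holds a CArG box between 2 cores.

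Hbegf was the gene of the set that rose under LPS, and its level in KO PBS cells was the lowest of the 4 groups. It had 2.04, 2.86 and 2.52 FPKM in KO LPS libraries, against 1.59, 1.73 and 1.38 FPKM in WT LPS libraries. Under PBS it had 0.495, 0.566 and 0.553 FPKM in KO libraries, against 2.48, 1.66 and 1.88 FPKM in WT libraries. The 3 KO PBS libraries lay below the other 9, KO LPS lay above WT LPS libraries, and WT PBS libraries overlapped both LPS groups. In the average over genotypes Hbegf rose by 0.47 ± 0.09 (SE, limma adjusted p = 0.000573), while the exact permutation gave p = 0.095, above the threshold. The mean was 4.6-fold higher under LPS than under PBS in KO cells, a difference of 1.17 ± 0.13, whereas in WT cells the difference was -0.22 ± 0.13 (SE). Hbegf lies on chromosome 18 of GRCm38 from 36504927 to 36515805, on the minus strand.

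Of the other 19 listed genes of the EGF receptor system, 11 had means under 1 FPKM, with the highest at 0.696 FPKM. All 6 other ligands listed (Egf, Tgfa, Areg, Ereg, Epgn and Btc) and all 4 receptor genes were under the minimum, and Erbb4 was listed at 0 in all libraries. Of the 8 tested genes, which encode the proteases and partners that act on membrane-bound ligands, 1 rose and 5 fell under LPS, against the same backgrounds of 27.7% and 42.6%. Adam8, a protease of myeloid cells, was at 10.7 ± 4.72 FPKM in KO LPS and 5.06 ± 0.17 FPKM in WT LPS libraries, against 61 ± 11.6 FPKM in KO PBS and 63.7 ± 25.9 FPKM in WT PBS libraries (SD, n = 3 each), and fell by 2.9 ± 0.22 (SE, limma adjusted p = 5.9e-07). Adam10 fell by 1.16 ± 0.08 and Cd9, the tetraspanin that binds the membrane form of Hbegf, by 1.68 ± 0.16, while Adam9 rose by 0.86 ± 0.15 (SE).

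The genotype difference that the choice of genes used was positive in the fitted genes, and for Egr3 it was within its error. The LPS response of KO cells less that of WT cells was 1.59 ± 0.20 for Egr1, 1.33 ± 0.19 for Egr2, 0.2 ± 0.39 for Egr3, 1.15 ± 0.16 for Csrnp1, 1.39 ± 0.18 for Hbegf, 1.72 ± 0.38 for Nr4a1 and 1.16 ± 0.25 for Nr4a3 (SE). The sign for Egr3 held in 17 of 20 alternatives, which ranged from -0.04 to 0.41. In the fit over all genes 4 of 9841 were called in this comparison, a background of 0.0406%, and these were Egr1, Hbegf, Csrnp1 and Egr2, from which nothing is read because it chose them. Under PBS 11 genes were called between the genotypes, a background of 0.112%, with 9 lower in KO cells, 0.0915%, and the same 4 genes were among those 9, from which nothing is read either, since the choice used the PBS libraries. Under LPS 0 genes were called between the genotypes by limma, a background of 0%, with 744 genes at an unadjusted p under 0.05. That 0 was not stable, as 26 genes were called higher in KO cells and 3 lower without KO LPS replicate 2. Without WT PBS replicate 3 it was 2 higher, and without a filter 2 lower. The components differed between the genes, since Egr1, Egr2, Csrnp1 and Hbegf were lower in KO than in WT cells under PBS without overlap, whereas Egr1, Hbegf, Nr4a1 and Nr4a3 were higher in KO than in WT cells under LPS without overlap. How many of all genes tested separate in this way was not computed. Since the genes were chosen on these libraries, nothing is read from their separation. Markers of T cells and natural killer cells were also lower in KO PBS than in WT PBS libraries without overlap, at summed levels of 15.2 to 21.3 FPKM in KO against 31.4 to 43.1 FPKM in WT for 6 T cell markers, and of 5 to 8.41 FPKM in KO against 8.76 to 14.6 FPKM in WT for 5 natural killer cell markers. Of the tested markers 0 of 6 and 1 of 3 were called lower there by limma, none was at 0 in all libraries, and their part in the differences was not tested. The number of genes with a higher response in KO cells was 0 in 8 of the 12 fits that left out a library, 11 without KO PBS replicate 1, 35 without KO LPS replicate 2 (with 1 lower) and 43 without WT PBS replicate 3 (with 5 lower), and it was 0 without the 2 libraries richest in erythroid RNA. The PBS count of 9 lower was 0 without KO PBS replicate 2 or 3, 20 without WT PBS replicate 1, 19 without WT PBS replicate 3, and between 2 and 5 without WT PBS replicate 2, KO LPS replicate 1 or any WT LPS replicate.

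**Figure D4:**
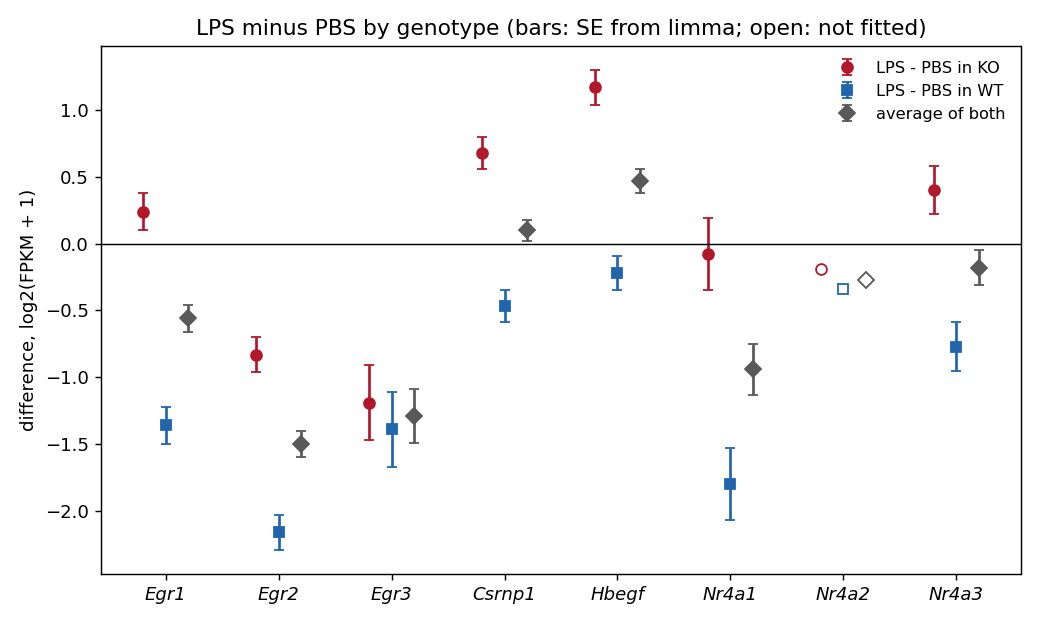
LPS less PBS on the log2(FPKM + 1) scale (vertical axis) for the 8 genes, in KO cells, in WT cells and averaged, with SE from limma, and open symbols for Nr4a2, which was not fitted. The values in KO cells lie above those in WT cells for all 8 genes, by the smallest amounts for Nr4a2 and Egr3.

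Other early response genes moved in both directions under LPS. Of 27 listed, 25 were tested, and 7 rose and 12 fell on average, against backgrounds of 27.7% and 42.6%, with a median difference of -0.05 against -0.12 for all genes tested. Klf4, a transcription factor of monocytes and macrophages, was at 3.52 ± 1.66 FPKM in KO LPS and 3.77 ± 0.119 FPKM in WT LPS libraries, against 42.4 ± 9.99 FPKM in KO PBS and 29.3 ± 10.5 FPKM in WT PBS libraries (SD, n = 3 each), and fell by 2.96 ± 0.20 (SE, limma adjusted p = 2.98e-07). Fos and Fosb, subunits of AP-1, fell by 2.26 ± 0.31 and 1.82 ± 0.24, and Klf10 by 2.07 ± 0.12 (SE). Fosb had 0.21 to 0.611 FPKM in KO LPS and 0.274 to 0.521 FPKM in WT LPS libraries. It passed the minimum through the PBS libraries, at 1.96 FPKM or more, so its call is no support for the count. In the comparison of LPS responses between the genotypes (the interaction) 0 of the 25 were called by limma, with 11 at an unadjusted p under 0.05, all of them with the higher value in KO cells, and the median was 0.56 against -0.02 for all genes tested. Of all 9841 genes tested, 946 were at an unadjusted p under 0.05 there. Of the 84 tested pathway list genes, 18 in the interaction, 13 under PBS and 13 under LPS had an unadjusted p under 0.05. Over all 9841 genes tested these numbers were 946, 897 and 744. By limma 0 of the 84 were called in the interaction or between the genotypes under either treatment. Without WT PBS replicate 3, however, 7 such calls arose, and without KO LPS replicate 2 there were 4.

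**Figure D5:**
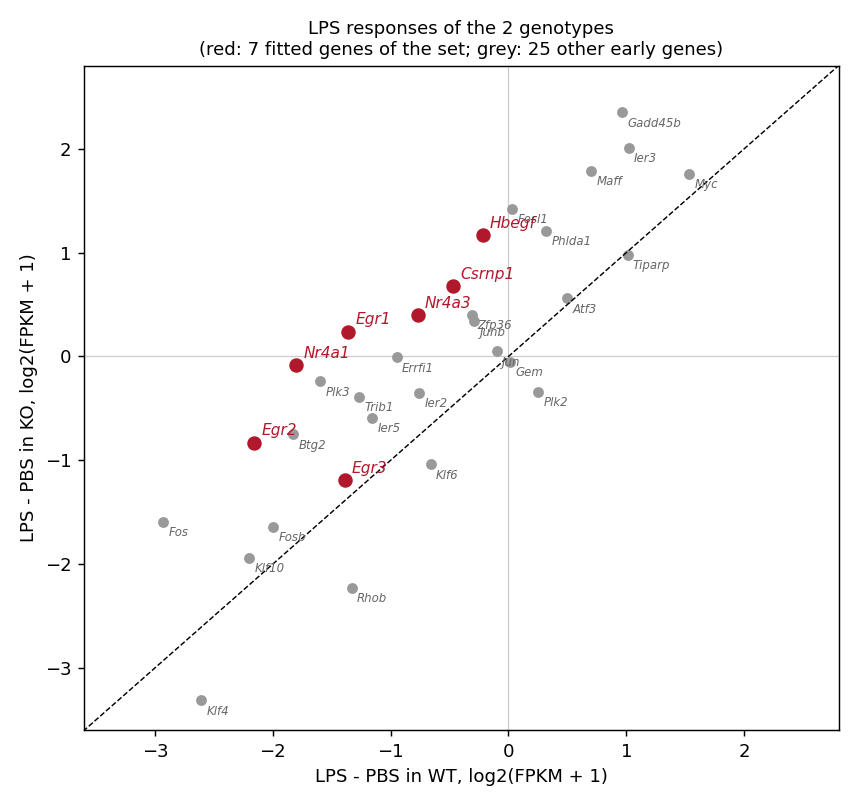
LPS less PBS in KO cells (vertical axis) against WT cells (horizontal axis), both on the log2(FPKM + 1) scale, for the 7 fitted genes (red) and 25 other early response genes (grey), with a dashed line where both are equal. All 7 red points and 19 of the 25 grey points lie above the line.

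The upstream machinery was measured in 4 further lists, whose counts stand against backgrounds of 27.7% higher and 42.6% lower. Of 17 tested genes of the ERK cascade 3 rose and 10 fell under LPS, with the largest changes in Mapk3, the kinase ERK1, which fell by 1.93 ± 0.14, and in Map3k8, the kinase that links LPS sensing to ERK, which rose by 1.32 ± 0.10 (SE). Of 8 tested ERK feedback inhibitors 4 rose and 4 fell, among them the phosphatase genes Dusp2, which rose by 1.87 ± 0.16, and Dusp6, which fell by 2.77 ± 0.12 (SE). Dusp8, among the 4 that fell, reached a group mean of 1 FPKM only in KO PBS libraries, at 2.63 FPKM. Dusp4, among the 4 that rose, did so only in KO and WT LPS libraries, at 1.59 and 1.34 FPKM. Both passed the minimum through groups in which they were high, so their calls are no support for these counts. Of serum response factor and its partners 4 of 6 fell and 0 rose, led by Elk3, a ternary complex factor, at -1.43 ± 0.11, and by Mkl1, a coactivator, at -1.12 ± 0.13 (SE), while Srf itself was not called. In the CREB and cAMP list 5 of 13 rose and 6 fell, with Adcy7, an adenylyl cyclase of leukocytes, at -2.03 ± 0.08 and Pde4b, a phosphodiesterase that degrades cAMP, at 0.97 ± 0.08 (SE).

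The genes whose levels ran most nearly parallel to each of the 8 differed from gene to gene. For Egr1 they were Plk3, Errfi1 and Krcc1, with Pearson r between 0.893 and 0.912 over the 12 libraries. Plk3, a stress-responsive kinase gene, was at 12.4 ± 2.18 FPKM in KO LPS and 7.6 ± 1.04 FPKM in WT LPS libraries, against 14.7 ± 1.97 FPKM in KO PBS and 25.2 ± 4.23 FPKM in WT PBS libraries (SD, n = 3 each). Errfi1, which encodes a feedback inhibitor of the EGF receptor, had an r of 0.902, which was 0.06 once group means were taken out. For Csrnp1 the most like genes were Cish, Pim2 and Cited2 and for Hbegf they were Tomm6, Rasip1 and Cish, with r between 0.861 and 0.911. Cish, a cytokine-induced inhibitor of STAT signalling, was at 9.9 ± 0.937 FPKM in KO LPS and 6.44 ± 1.72 FPKM in WT LPS libraries, against 3.46 ± 1.47 FPKM in KO PBS and 10.4 ± 2.39 FPKM in WT PBS libraries (SD, n = 3 each). For Egr2 they were Fbxo46, Ipcef1 and Cpt1a (r from 0.965 to 0.972), for Egr3 Cdh17, Chsy1 and Lnx2 (r from 0.962 to 0.972) and for Nr4a3 Fosl2, Olfm4 and Slc7a11 (r from 0.869 to 0.901). Among the 8 genes themselves, r was 0.92 for Egr2 with Nr4a2 and 0.83 for both Egr1 with Egr2 and Csrnp1 with Hbegf, and -0.34 for Egr3 with Hbegf. Once group means were taken out, these 4 values were 0.56, 0.69, 0.28 and 0.35. Those of the most like genes then ran from -0.15 (Rasip1 with Hbegf) to 0.92 (Lnx2 with Egr3). All these values are descriptions over 12 libraries that share 4 group means.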

How the data were processed

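Total RNA of peritoneal lavage cells was sequenced, per the labels' protocols. The authors deposited a symbol and a value per gene for each of the 12 libraries, with no unit stated. The deposited values were taken as FPKM, because they are not whole and Cufflinks is named. Per the submitters' processing notes, TopHat, Cufflinks, HTSeq, DESeq and the build GRCm38 are named, without versions or roles. Of 21878 rows, 27 with date-like symbols were left out.

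The 9841 genes (45%) averaging 1 FPKM or more were tested on log2(FPKM + 1), a scale that understates the change of low genes, with limma 3.58.1 (trend, robust) in R 4.3.3. A mean per group was fitted to all 12 libraries, and p-values were adjusted by Benjamini-Hochberg within a contrast at 0.05, two-sided. The test was checked on simulated data. FPKM carries no read numbers, so no counting interval was computed. Relative depth was read off as the mode of the ratios between libraries among genes below 0.2 FPKM, within 1%, which held 5.32% to 17.2% of such genes.

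The 8 genes, the gene lists and the comparisons were chosen with earlier results of these data known. From each list up to 4 called genes with the largest averaged LPS change were named, or up to 2 of the highest level where none was called, and for each fitted gene the 3 most correlated. Positions are from GENCODE, promoters from RefSeq. Alternatives tried were other pseudocounts, filters, scalings, model settings, the replicate number as a block, leaving out each library, and an exact permutation test.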

Additional observations from a re-analysis of the deposited data

Results flagged for a closer look

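Csrnp1 and Nr4a3 moved in opposite directions under LPS in KO and WT cells, with the LPS and PBS libraries not overlapping within either genotype. For Csrnp1 the LPS response of KO cells less that of WT cells was 1.15 on the log2(FPKM + 1) scale, and for Nr4a3 it was 1.16. The set was chosen because several of its genes differed between the genotypes in their LPS response, so nothing is read from these opposite directions. How many of all genes tested move in this way was not computed. The difference was not tested in libraries other than those on which both genes were chosen.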

How the results depend on the processing

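No result changed its called direction. Under LPS on average, requiring a mean of at least 5 FPKM left 2552 genes lower, with 0 genes of the set called higher and 2 lower, as fewer genes were tested. Scaling by the median of ratios called 2 of the set higher. The number of genes called higher for the interaction, 4 in the fit reported, was 0 without a filter (with 1 lower), 1 at a mean of at least 5 FPKM, 8 with median-of-ratios scaling, 9 with upper-quartile scaling, 7 with limma without trend and robust, and 0 with the replicate block. It ranged from 0 to 43 when a library was left out, reaching 43 without WT PBS replicate 3 (with 5 lower) and 35 without KO LPS replicate 2, and was 0 without the 2 libraries richest in erythroid RNA, an alternative chosen after seeing the data. The number lower in KO cells under PBS, 9 in the fit reported, was 4 at a mean of at least 5 FPKM, 3 with the replicate block, 0 to 20 when a library was left out, 0 without the erythroid-rich libraries and 0 with only the 6 PBS libraries fitted. Beyond the filters and the smaller numbers of libraries, the cause was not tested. The deviations of same-numbered libraries from their group means correlated between -0.25 and 0.19 over 18 pairs. Differently numbered libraries were not compared, so these values cannot decide whether the replicate numbers stand for a pairing or a batch. Leaving out a library kept 1 gene of the set higher and 4 to 5 lower under LPS. The sign of the Nr4a1 LPS difference in KO cells held in 18 of 21 alternatives. A pseudocount of 0.1 FPKM gave larger differences for the low genes, such as 2 for Hbegf under LPS in KO cells and -3.36 for Egr2 in WT cells. Unknown read numbers limit what can be said of Nr4a2 and of Egr2 under LPS.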
